A study of Mus musculus with 11 samples.

Results

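Across the mouse genome, 665 windows of 5 kb carried dimethylated histone H3 lysine 4 (H3K4me2) in jejunal villi as long as Cdx2 was present, and had no called H3K4me2 nucleosome in any of the 3 lists from villi lacking Cdx2. A window was taken where 0 nucleosomes were centred in it in Cdx2 knockout and in both double knockouts, and at least 2 in Hnf4a knockout and likewise in wild type. Only nucleosomes with a deposited score of 52 or more were counted, the score being 10 times the −log10 of a p-value. Of 90972 windows with a nucleosome in any list, 39632 were marked, with at least 2 nucleosomes in Hnf4a knockout and wild type alike, and the 665 windows are 1.68% of these. Taken list by list, Cdx2 knockout left 3.59% of the marked windows empty, the double knockout titled Cdx2-Cdx1 3.02% and that titled Cdx2-Hnf4a 7.04%. The other 38967, called the other marked windows, serve for comparison. The windows were chosen by their H3K4me2 counts in these 5 lists, so those counts are given as a description. The binding of CDX2 and HNF4A played no part in the choice.

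H3K4me2 marks nucleosomes at active and poised promoters and enhancers, and nucleosomes carrying it often sit on either side of a bound transcription factor. CDX2 is the homeodomain factor that sets and maintains intestinal identity, and HNF4A is a nuclear receptor that drives enterocyte genes of lipid and nutrient handling. At intestinal enhancers both are known to bind near each other.

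The lists come from chromatin immunoprecipitation and sequencing of villus epithelium, released from the jejunum with EDTA and kept on a filter that crypts pass. H3K4me2 was mapped in Cdx2 knockout, in a double knockout titled Cdx2-Cdx1, in a double knockout titled Cdx2-Hnf4a, in Hnf4a knockout and in wild type, with 1 library each. HNF4A was mapped in Cdx2 knockout and wild type with 1 library each, and CDX2 in Hnf4a knockout with 1 library and in wild type with 2. All mice were of a mixed 129xC57BL6 background, and each library was built from pooled ChIP DNA. The labels name no age, Cre driver or number of animals. On the gene deleted beside Cdx2 the labels of the double knockouts contradict themselves. The library titled Cdx2-Cdx1 has Hnf4a in its source and description, and the one titled Cdx2-Hnf4a has Cdx1 in its description and a different antibody lot. Cdx2 is deleted in both by every label, which is all that is used here. The loss of the targeted genes was not checked in these lists. With 1 library a condition, no p-value between conditions was computed, and all intervals below are exact 95% binomial intervals or Newcombe intervals of a difference, covering counting error only. Where nucleosomes are counted, those of the same window are taken as independent, which can make the intervals too narrow. In whole villi, fewer cells carrying the mark and less mark per cell cannot be told apart.

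At a score of 52 or more the H3K4me2 lists held 256794 nucleosomes in Cdx2 knockout, 281957 and 275915 in the double knockouts titled Cdx2-Cdx1 and Cdx2-Hnf4a, 250282 in Hnf4a knockout and 245431 in wild type. The lists lacking Cdx2 were thus the longer ones. The depth in reads is unknown, since the lists carry no read totals.

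Most of the 665 windows were lightly marked. They held 2081 nucleosomes in Hnf4a knockout and 1886 in wild type, a median of 3 and 2 per window, while the other marked windows had a median of 4 in both lists. Exactly 2 wild-type nucleosomes lay in 389 of the windows (58.5%), 3 in 165, and 8 or more in 12. Their nucleosomes also scored low. The mean score within a window had a median of 125.3 in Hnf4a knockout and 118 in wild type, against 342.5 and 394.8 in the other marked windows, and 57.3% of the windows fell in the lowest of 5 equal classes of summed score among marked windows of their count. Just inside the rule, 237 windows had exactly 2 nucleosomes in both lists. Just outside it, 519 windows empty in the 3 lists had 1 nucleosome in wild type, 300 had 1 in Hnf4a knockout, and 507 marked windows held a single nucleosome over the 3 lists together. Below the score limit, the deposited lists placed a further 13 nucleosomes in the 665 windows in Cdx2 knockout, 35 in the double knockout titled Cdx2-Cdx1 and 4 in the one titled Cdx2-Hnf4a. Hnf4a knockout had 1958 such weak calls, but that list alone reaches down to a score of 1.7, and wild type had 40. Because the windows were sparser and weaker than the rest, factor peaks were compared with the other marked windows weighted to the same wild-type counts and the same 5 classes of summed score.

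The fullest window was 118850001 to 118855000 of chromosome 11 (coordinates of build mm9). It had 0 nucleosomes in each of the 3 lists lacking Cdx2, 21 in Hnf4a knockout and 20 in wild type, and no CDX2 or HNF4A peak. The adjoining window at 118845001 to 118850000 was empty in the same 3 lists, with 6 nucleosomes in Hnf4a knockout and 8 in wild type. This neighbour held the factor peaks of the locus, a CDX2 peak of library 1 (score 179.6) and a wild-type HNF4A peak (223.0) that was not called in Cdx2 knockout. The marked stretch went on to both sides. In the window from 118840001, Cdx2 knockout and the double knockout titled Cdx2-Cdx1 had 3 nucleosomes each, the double knockout titled Cdx2-Hnf4a 0, Hnf4a knockout 7 and wild type 13. In the window from 118855001 there were 2, 1 and 0 in these lists lacking Cdx2, 7 in Hnf4a knockout and 4 in wild type.

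The second fullest window, on chromosome 1 at 130220001 to 130225000, had 16 nucleosomes in Hnf4a knockout and 19 in wild type. It formed a run of 3 adjacent windows, from 130215001 to 130230000, with 22 nucleosomes in Hnf4a knockout and 29 in wild type in all. A CDX2 peak of library 1 at 130224368 to 130225341 (156.1), overlapped by a peak of library 2 (59.3), spans the border of 2 of these windows. The wild-type HNF4A peak of the run at 130219711 to 130220211 (158.5), which also spans a border of 2 windows, was not called in Cdx2 knockout. Even the windows beyond the run held 0 nucleosomes in the 3 lists lacking Cdx2, with 1 and 1 in Hnf4a knockout and 4 and 1 in wild type.

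Windows with as dense a loss were few. In chr6:78330001-78335000 there were 15 nucleosomes in Hnf4a knockout and 15 in wild type. In chr4:106405001-106410000 there were 12 in Hnf4a knockout and 15 in wild type, and in chr10:101835001-101840000 12 in Hnf4a knockout and 10 in wild type. None of these 3 held a CDX2 or HNF4A peak. The next 5, with nucleosomes in Hnf4a knockout and wild type in that order, were chr15:99660001-99665000 (8 and 9), chr4:107690001-107695000 (3 and 9), chr10:88350001-88355000 (10 and 8), chr6:40010001-40015000 (9 and 8) and chr18:78315001-78320000 (8 and 8). Around them 3 patterns were seen. The window on chromosome 10 at 101835001 was an island, with at most 2 nucleosomes in any flanking window of any list. That on chromosome 4 at 107690001 lay at the edge of a dense domain, whose next window kept 9, 6 and 1 nucleosomes in Cdx2 knockout and the double knockouts titled Cdx2-Cdx1 and Cdx2-Hnf4a, against 15 in Hnf4a knockout and 18 in wild type. Beside the window on chromosome 18, the next one was marked in all lists, with 9, 7, 8, 9 and 10 nucleosomes in the same order.

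**Figure D1:**
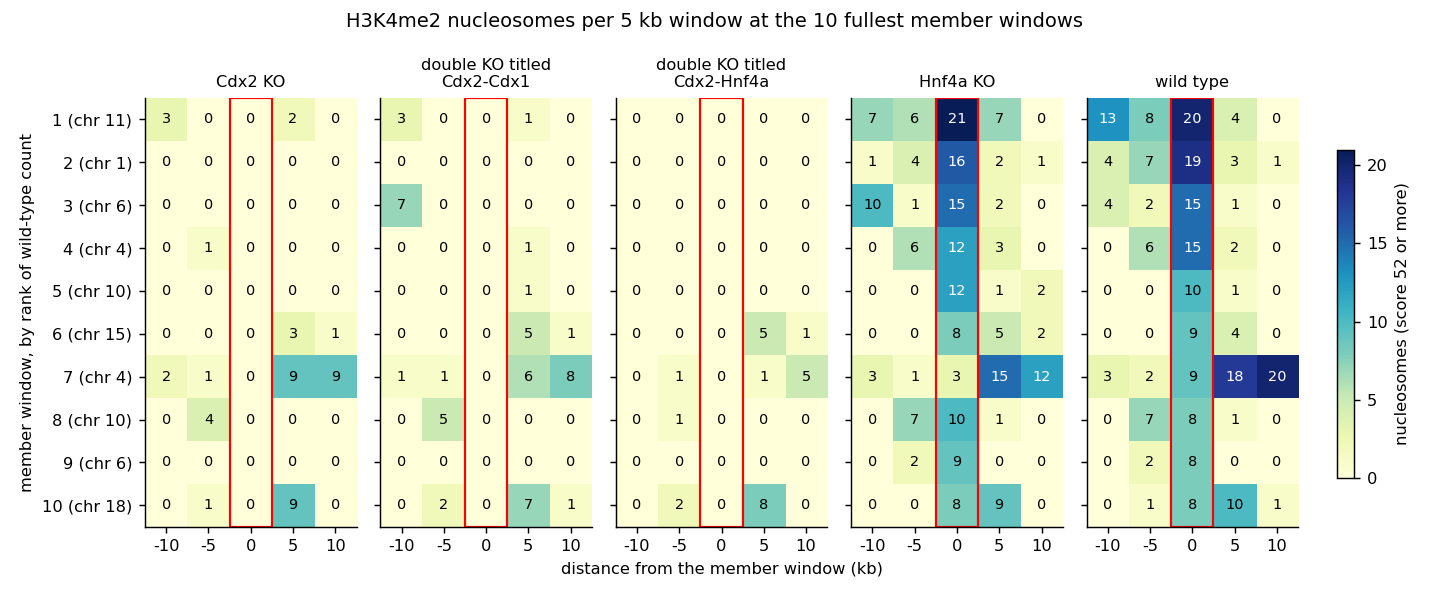
H3K4me2 nucleosomes of score 52 or more (number in each cell) in the 10 member windows with the most wild-type nucleosomes, framed in red, and in the 5 kb windows up to 10 kb on either side, in each of the 5 lists (1 library each). The framed column is 0 in the 3 lists lacking Cdx2 by the choice of windows; the window 5 kb downstream of the seventh one (chromosome 4, 107690001) keeps 9, 6 and 1 nucleosomes in these lists, while around the second one (chromosome 1, 130220001) all 3 stay at 0.

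The windows were mostly isolated. Only 36 of 665 (5.41%) touched another one, forming 17 runs, of which 2 were 3 windows long. Beside the run on chromosome 1, the other was chr12:105375001-105390000, which had 10 nucleosomes in Hnf4a knockout and 8 in wild type. It held no CDX2 peak, and HNF4A peaks in 2 windows, neither called in Cdx2 knockout. The fullest runs of 2 windows were chr11:118845001-118855000 (27 nucleosomes in Hnf4a knockout and 28 in wild type), chr6:40005001-40015000 (11 and 10) and chr9:61265001-61275000 (6 and 9). Though few, the windows lay near each other more often than other marked windows lay near them. The shares that follow were not weighted for wild-type counts or scores, which were lower in the 665 windows. Of the marked windows next to one of the 665, 12.5% belonged to the 665 themselves (38 of 303), against 0.968% of the marked windows next to the other marked ones (265 of 27389). At a distance of 50 kb the shares were 4.37% (8 of 183) and 1.13% (175 of 15439). A pair of the 665 windows is counted from both sides here, so the first share rests on few pairs.

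H3K4me2 was also sparser just past the window borders in the lists lacking Cdx2. In the next window on each side, leaving out those that belonged to the 665, Cdx2 knockout had 1254 nucleosomes and wild type 1782. Scaled to the lengths of the lists this is a ratio of 0.673 (0.625 to 0.723). The double knockouts gave 0.644 (0.5996 to 0.692) where the title is Cdx2-Cdx1 and 0.528 (0.489 to 0.570) where it is Cdx2-Hnf4a. In Hnf4a knockout the ratio was 1.05 (0.986 to 1.12). Next to the other marked windows the 4 ratios were 0.991, 0.963, 0.939 and 1.01 in the same order. The flanks of the 2 groups were not matched, and in wild type those of the other marked windows were the denser. The deficit was smaller farther out: in Cdx2 knockout the ratio was 0.798 (0.742 to 0.859) at 10 kb and 0.912 (0.843 to 0.988) at 25 kb. At 50 kb it was no higher, 0.901 (0.829 to 0.979), and at 100 kb it was 0.959 (0.872 to 1.05). Around the other marked windows Cdx2 knockout had 1.01 at 25, 50 and 100 kb. At 50 kb from the 665 windows the double knockouts had 0.907 (0.836 to 0.983) where the title is Cdx2-Cdx1 and 0.851 (0.783 to 0.924) where it is Cdx2-Hnf4a. These flanking windows were not themselves selected, but they come from the lists that chose their neighbours, and a nucleosome called on the other side of a border can move between them.

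**Figure D2:**
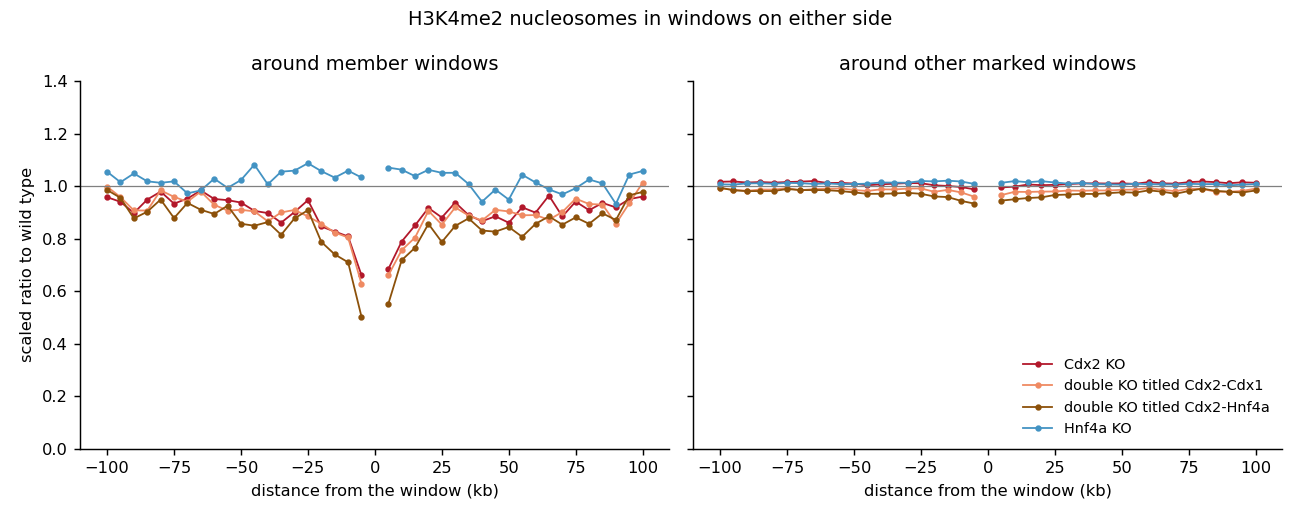
Nucleosome numbers in 5 kb windows at each distance (kb) from the 665 member windows (left) and from the 38967 other marked windows (right), as a ratio to wild type scaled by list length, with member windows left out of the flanks; lines are the 3 lists lacking Cdx2 and Hnf4a knockout, 1 library each. Around member windows the lists lacking Cdx2 dip to between 0.528 and 0.673 in the nearest windows (mean of both sides). These lists are higher farther out but still between 0.851 and 0.907 at 50 kb, while Hnf4a knockout stays close to 1.

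CDX2 bound these windows more often than other marked windows of like strength. A wild-type CDX2 peak of either library overlapped 250 of the 665 windows, or 37.6% (33.9 to 41.4), against 17.5% of all marked windows and 15.5% of the other marked windows after weighting, a difference of 22.1 points. Without weighting the other marked windows had 17.1%, and the difference was 20.4 points (16.8 to 24.2). The excess was present at each wild-type count: 35.2% against 12.6% in windows with 2 nucleosomes, 42.4% against 13.9% with 3, and 42.4% against 21.5% with 6 or more. Library 1 gave 34.6% against a weighted 13.4%, and library 2 gave 12.2% against 4.85%. A CDX2 peak shared by both libraries lay in 56 windows, 8.42% (6.42 to 10.8), against a weighted 2.66%. The size of the gap in points thus hung on library 1, the longer list: it was 7.33 points with library 2 alone and 5.76 points with shared peaks alone, while the ratio to the other marked windows was 2.58 for library 1, 2.51 for library 2 and 3.17 for shared peaks. With CDX2 peaks of score 100 or more the gap was 9.14 points.

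The share with CDX2 was lower in windows that lost the mark in fewer lists. It was 37.6% in the 665 windows, 28.7% (25.6 to 32.0) in the 805 marked windows empty in 2 of the 3 lists lacking Cdx2, 26.7% (24.7 to 28.9) in the 1802 empty in 1, and 16.4% (16.0 to 16.8) in the 36360 empty in none. Windows empty in 1 list differed by list. The share was 24.8% in the 246 empty in Cdx2 knockout alone. It was 17.1% in the 181 empty in the double knockout titled Cdx2-Cdx1 alone. Most of the 1802, namely 1375, were empty in that titled Cdx2-Hnf4a alone, with 28.4%. The shares in this paragraph were not weighted for wild-type counts or scores. The opposite windows were 729 with 2 or more nucleosomes in each list lacking Cdx2 and 0 in Hnf4a knockout and wild type. They held a CDX2 peak in 4.25% (2.91 to 5.98). Of the 626 windows empty in the double knockout titled Cdx2-Hnf4a alone and marked in the other 4 lists, 28.1% (24.6 to 31.8) held a CDX2 peak. Near the edge of the rule the share was lower than in the 665 windows as a whole. It was 30.4% in the 237 windows just inside. Just outside, it was 29.0% in the 507 with a single nucleosome over the 3 lists and 26.8% in the 519 with 1 in wild type. In the 300 with 1 in Hnf4a knockout it was 17.3%, near the 17.5% of all marked windows.

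Of the 5 strongest CDX2 peaks shared by both wild-type libraries, 4 lay in windows with 2 or 3 wild-type nucleosomes, and that on chromosome 4 in a window with 6. The highest, on chromosome 3 at 101588470 to 101589270, scored 278.0 in Hnf4a knockout and 635.6 and 413.9 in wild type. Its window had 3 nucleosomes in Hnf4a knockout and 3 in wild type, and its wild-type HNF4A peak (369.3) was not called in Cdx2 knockout. The others of the 5 highest were chr1:187326141-187326831 (58.8 in Hnf4a knockout, 610.5 and 160.8 in wild type), chr10:96682924-96683609 (103.0 in Hnf4a knockout, 321.3 and 283.2 in wild type), chr4:119864393-119866165 (not called in Hnf4a knockout, 318.6 and 176.7 in wild type) and chr19:18835790-18836445 (126.3 in Hnf4a knockout, 282.2 and 208.7 in wild type). CDX2 was thus called in Hnf4a knockout at 4 of these 5 peaks. Over all library 1 peaks in the 665 windows, CDX2 was called again in Hnf4a knockout at 13.1% (32 of 244, 9.15 to 18.0), against 8.6% of all library 1 peaks and 12.7% of peaks of like score in other marked windows. For library 2 it was 30.9% (25 of 81, 21.1 to 42.1), against 11.6% of all its peaks and 28.5% of score-matched ones. Both intervals include the score-matched value.

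In Cdx2 knockout HNF4A was called in few of the 665 windows, while in wild type its share against other windows depended on which windows were compared. A wild-type HNF4A peak overlapped 204 windows, 30.7% (27.2 to 34.3), against 31.4% of all marked windows and a weighted 27.0%. That gap of 3.70 points turned to −0.354 points when 3 nucleosomes were required in Hnf4a knockout and wild type. It was 9.25 points at a nucleosome score of 100 or more, and 9.66 points against windows with 2 or more nucleosomes in all 5 lists. Without weighting, HNF4A lay in 39.6% (36.2 to 43.1) of marked windows empty in 2 of the 3 lists lacking Cdx2. It lay in 47.4% (45.1 to 49.8) of those empty in 1 and 30.4% (29.9 to 30.9) of those empty in none. The share depended on which list was empty. It was 54.7% for the list titled Cdx2-Hnf4a alone, 49.5% for it and that titled Cdx2-Cdx1, and 35.9% for it and Cdx2 knockout. Windows empty in Cdx2 knockout alone had 22.0%, in that titled Cdx2-Cdx1 alone 27.1%, and in both of these 17.9%. In Cdx2 knockout, an HNF4A peak overlapped 13 windows, 1.95% (1.04 to 3.32), against a weighted 12.7%. HNF4A in Cdx2 knockout is a separate library from those that chose the windows.

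**Figure D3:**
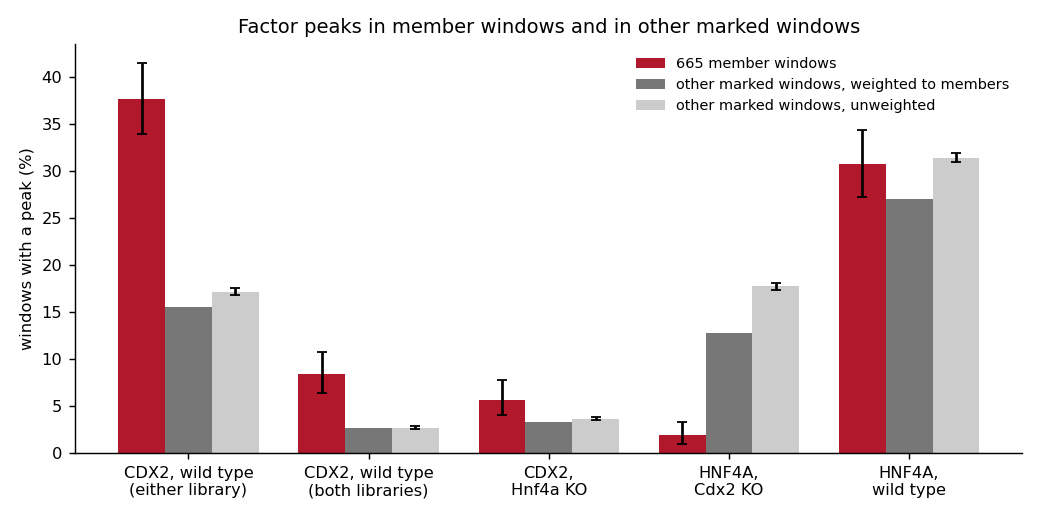
Share of windows (%) overlapped by a peak of each factor list: the 665 member windows (red, with exact 95% intervals), the other marked windows weighted to the members' wild-type counts and scores (dark grey) and unweighted (light grey, with intervals). CDX2 in wild type is at 37.6% in member windows against a weighted 15.5%, and HNF4A in Cdx2 knockout at 1.95% against 12.7%.

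Followed peak by peak, 11 of the 235 wild-type HNF4A peaks overlapping the 665 windows were called again in Cdx2 knockout, or 4.68% (2.36 to 8.22). Over all 22376 wild-type HNF4A peaks the share was 30.1%. In other marked windows 38.5% (37.7 to 39.2) were called again, a difference of −33.8 points (−36.0 to −30.2). Peak scores were alike, with medians of 96.8 in the 665 windows and 94.9 in the others, and weighting over 10 equal classes of peak score gave −31.3 points. The gap widened with peak strength. In the highest of the 10 score classes, 2 of 19 peaks in the 665 windows were called in Cdx2 knockout (10.5%, 1.30 to 33.1), against 87.3% (85.8 to 88.8) of 1984 in other marked windows. In the lowest class it was 0 of 21 (up to 16.1%) against 10.2% (8.59 to 12.1) of 1200, which does not differ beyond counting error. Lost here means not called, and the Cdx2 knockout list is the shorter, with 9676 peaks.

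**Figure D4:**
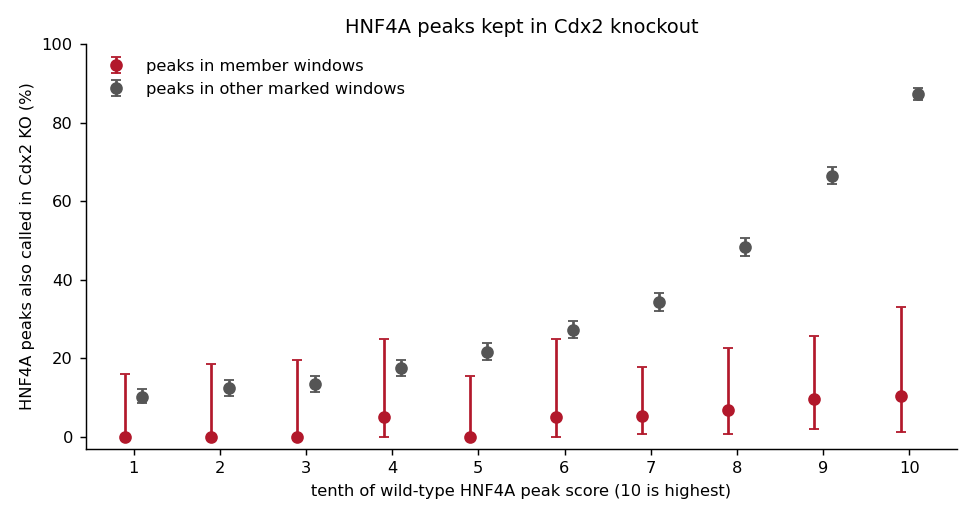
Share of wild-type HNF4A peaks overlapped by an HNF4A peak in Cdx2 knockout (%), by class of wild-type peak score (10 equal classes), for the 235 peaks in member windows (red) and the 15174 in other marked windows (grey); bars are exact 95% intervals and each factor list is 1 library. The share climbs to 87.3% for the grey points in the highest class and is 10.5% for the red one.

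HNF4A peaks were rarely called again whether or not a CDX2 peak lay at the same place. Of the HNF4A peaks in the 665 windows that overlapped a wild-type CDX2 peak of either library, 4 of 82 were called in Cdx2 knockout (4.88%, 1.34 to 12.02), and of those that did not, 7 of 153 (4.58%, 1.86 to 9.20). The score-weighted shares in other marked windows were 32.0% with and 36.3% without CDX2. The share called again was also lower where more of the 3 lists were empty. It was 40.2% (39.3 to 41.0) in windows empty in none, 23.9% (21.4 to 26.5) in those empty in 1, and 17.0% (13.4 to 21.2) in those empty in 2. Peaks that reach into the 665 windows were left out. These shares were not weighted by peak score or split by list. Of the 1802 windows empty in 1 list, 1375 were empty in that titled Cdx2-Hnf4a alone. HNF4A peaks in other marked windows within 1 window of the 665 were called again at 21.5% (37 of 172, 15.6 to 28.4), against 43.7% for peaks of the same score lying more than 100 kb away. At 10 kb the share was 30.0% (22.6 to 38.3) against 37.5%, which is inside the interval, and at 15 to 25 kb it was 31.1% (25.9 to 36.6) against 40.01%, which is outside it. At 30 to 50 kb it was 34.4% (29.6 to 39.3) against 36.2%, and at 55 to 100 kb 38.0% (34.3 to 41.9) against 40.5%, both inside.

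Among the lost peaks, the highest-scoring was on chromosome 7 at 52578115 to 52578984, with a wild-type score of 634.6. It overlapped a CDX2 peak, and its window had 5 nucleosomes in Hnf4a knockout and 3 in wild type. Those next in score were chr5:129598820-129599485 (627.2), chr9:92278185-92278644 (593.2), chr11:94365506-94365899 (529.3) and chr13:44484982-44485353 (495.1). None of these 4 overlapped a CDX2 peak, although the window on chromosome 5 held one elsewhere (library 1, 91.9). The highest-scoring peak called again, on chromosome 3 at 62262331 to 62262806, had 135.8 in Cdx2 knockout and 320.9 in wild type. It was followed, with scores in Cdx2 knockout and wild type in that order, by chr14:11241863-11242266 (79.0 and 288.9), chr1:181523191-181523581 (81.0 and 250.4), chr6:39376627-39377008 (84.8 and 189.8) and chr12:101594598-101595008 (62.7 and 175.8). These 5 were picked for high wild-type scores, and scores of separate lists move with depth. Of the 11 peaks called again, chr16:93360143-93360270 scored higher in Cdx2 knockout, with 88.9 against 64.0 in wild type. A peak called again lay in 10 of the 389 windows with 2 wild-type nucleosomes, of which 106 held HNF4A, and in 1 of the 33 with 6 or more, of which 19 held HNF4A. A new HNF4A peak, called in Cdx2 knockout alone, lay in 3 of the 665 windows (0.451%), against a weighted 3.61%.

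Seen by factor, 102 of the windows held both CDX2 and HNF4A in wild type (15.3%, against a weighted 7.52%), 148 CDX2 alone (22.3% against 8.02%), 102 HNF4A alone (15.3% against 19.5%) and 313 neither (47.1% against 65.0%). Put the other way, the 665 windows made up 4.86% of marked windows with CDX2 alone, 2.63% of those with both factors, 1.30% of those with neither and 1.19% of those with HNF4A alone. The flanking ratio of Cdx2 knockout to wild type was 0.530 (0.441 to 0.636) beside windows with both factors, 0.678 (0.564 to 0.814) with CDX2 alone, 0.670 (0.564 to 0.797) with HNF4A alone and 0.729 (0.657 to 0.810) with neither. Every class was below 1, and only the first and last have intervals that do not overlap. These intervals take the nucleosomes of a window as independent, and the classes were not tested against each other. Of the 415 without a CDX2 peak, 40.2% (35.5 to 45.1) had one centred within 20 kb of the window centre, against a weighted 40.1%, which is inside the interval.

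Where the windows held a factor, most of their nucleosomes in Hnf4a knockout and wild type lay near its peak centre. Compared with other marked windows of the same counts, not matched for nucleosome or peak score, this was more marked for CDX2 but not for HNF4A. In the windows with CDX2, 62.3% (59.0 to 65.6) of nucleosomes in Hnf4a knockout and 67.6% (64.0 to 71.0) in wild type were centred within 500 bp of a CDX2 peak centre. In other marked windows with CDX2 and the same counts, the shares were 52.3% and 58.0%. For HNF4A the shares were 63.6% (59.9 to 67.3) in Hnf4a knockout and 67.1% (63.3 to 70.8) in wild type. Other marked windows had 63.8% and 66.3%, both inside the intervals. The arrangement around HNF4A had a gap at the centre. In the 100 bp bins around HNF4A centres, Hnf4a knockout, in which HNF4A itself is deleted, had 83 nucleosomes in the bin centred 150 bp to the left, 39 and 35 in the bins on either side of the centre, and 76 in the bin centred 150 bp to the right. Wild type had 83, 39, 37 and 92 in the same bins. A gap was also present around HNF4A peaks of other marked windows, so it was not particular to these windows. Within 100 bp of those centres Hnf4a knockout had 0.240 nucleosomes per peak and 100 bp, against 0.319 at 100 to 300 bp. Wild type had 0.227 and 0.326. In the windows studied here the values were 0.157 and 0.287 in Hnf4a knockout and 0.162 and 0.295 in wild type. Within 1 kb of the 235 centres there were 12 nucleosomes in Cdx2 knockout, 13 and 6 in the double knockouts titled Cdx2-Cdx1 and Cdx2-Hnf4a, 600 in Hnf4a knockout and 558 in wild type. The few in the lists lacking Cdx2 lie past the window borders. In the same 4 bins around CDX2 centres there were 79, 62, 55 and 81 in Hnf4a knockout and 70, 74, 61 and 80 in wild type. Within 100 bp of CDX2 centres Hnf4a knockout had 0.217 nucleosomes per peak and 100 bp, against 0.276 at 100 to 300 bp. Wild type had 0.251 and 0.247, with no dip at the centre. Around CDX2 peaks of other marked windows both lists were lower at the centre. The values there were 0.245 and 0.278 in Hnf4a knockout and 0.251 and 0.277 in wild type.

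**Figure D5:**
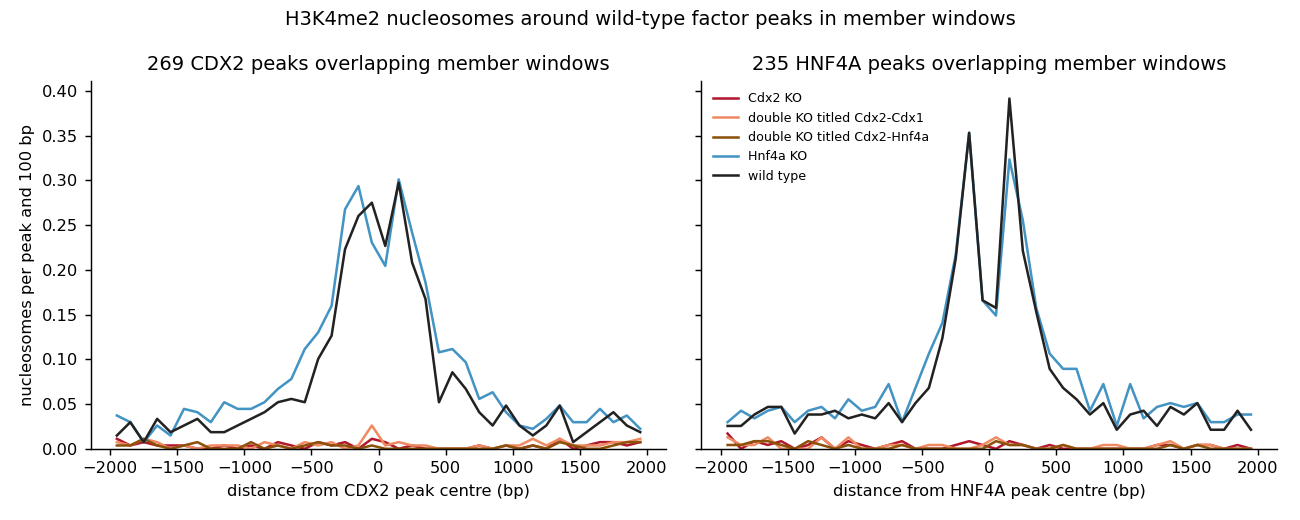
Nucleosomes of score 52 or more per factor peak and 100 bp bin, by distance (bp) from the centres of the 269 CDX2 peaks (left) and 235 HNF4A peaks (right) of wild type that overlap member windows, in each of the 5 lists. Hnf4a knockout and wild type show a pair of maxima at 150 bp on either side of HNF4A centres; the lists lacking Cdx2 lie near 0 by the choice of windows.

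Of the 1886 wild-type nucleosomes in the 665 windows, 69.9% had an Hnf4a knockout nucleosome of score 52 or more centred within 50 bp. In other marked windows the share was 78.1% over all nucleosomes and 63.7% over those of like score, so the direction of the difference turns with the weighting by score. Counts were higher in Hnf4a knockout than in wild type in 229 of the 665 windows, equal in 313 and lower in 123, and in the other marked windows higher in 12547, equal in 14358 and lower in 12062. The rule used these counts, with a minimum of 2 in each list.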

How the data were processed

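The authors deposited 1 list per library. Each factor peak has coordinates and a score; its name carries the word MACS, per the files, and no source used here says what that score stands for. H3K4me2 lists give called nucleosomes with a score that is 10 times the −log10 of a p-value, per the file headers. The build is mm9, per the submitters' processing notes; no source used here names the aligner or nucleosome caller. The input sample was not analysed here. Labels' protocols name 15 mM EDTA, a 70 µm filter and 10 to 20 ng of pooled ChIP DNA.

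Nucleosome centres with a score of 52 or more were counted in 5 kb windows from position 1 (Python 3.11.15, pandas 2.3.3, numpy 2.4.6). A peak counted in a window, or as called again, with an overlap of 1 bp or more. Shares of other marked windows were weighted to the members over wild-type counts of 2, 3, 4, 5, and 6 or more, by 5 equal classes of wild-type summed score within each count; HNF4A peaks were weighted over 10 equal classes of score. Exact Clopper-Pearson intervals came from scipy 1.17.1 and Newcombe intervals from statsmodels 0.14.6. The counting and weighting were checked on simulated data. Windows were named by rule: the 10 with most wild-type nucleosomes, the 5 highest-scoring shared CDX2 peaks, the 5 highest HNF4A peaks lost and the 5 called again, and the 5 longest runs. The alternatives tried (score limit, minimum count, window size, lists in the rule, peak score, weighting) are given with the closing observations. The windows, rule and comparisons were chosen with earlier results of these data known. Gene names, sequences and motifs are not given, since the gene tables used are of another build.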

Additional observations from a re-analysis of the deposited data

How the results depend on the processing

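Over the alternatives tried, the CDX2 excess stayed positive in 21 of 21, the HNF4A kept difference negative in 17 of 17, and the flanking ratio of Cdx2 knockout below 1 in 15 of 15 (0.461 to 0.798). Leaving out a wild-type CDX2 library put the CDX2 excess between 7.33 and 21.2 points. It was 5.76 points with peaks shared by both libraries and 9.14 points with peaks of score 100 or more. With windows shifted against the first grid it was 18.2 points. With the lists as deposited there were 1088 windows and an excess of 16.3 points. At a minimum of 1 nucleosome there were 2602 windows, an excess of 14.2 points, an HNF4A kept difference of −24.6 points, a flanking ratio of 0.762 and 8.57% of windows in runs. At 3 there were 202 windows, with an HNF4A share difference of −0.354 points, the sole reversal (the cause was not tested), a kept difference of −38.1 points and a ratio of 0.567. At 5 there were 33 windows, with 27.1, 7.56 and −35.7 points in the order CDX2, HNF4A share and HNF4A kept, and a ratio of 0.461. The ratio was 0.545 with 2 kb windows and 0.798 in the second window. Without the list titled Cdx2-Cdx1 in the rule there were 1119 windows, 7.69% of them in runs. The HNF4A share difference was 9.25 points at a nucleosome score of 100 or more and 9.66 points against windows marked in all 5 lists. Against the same windows the HNF4A kept difference was −34.2 points. It was −33.8 points unweighted and −46.9 points for HNF4A peaks of score 100 or more. With nucleosomes of score 100 and over the rule gave 493 windows, of which 179 were among the 665, so the list of windows depends on the score limit. Placing nucleosomes by their start (668 windows) and using twentieths of summed score were alternatives added after seeing the data. No paired analysis was possible because the conditions have 1 library each, beside CDX2 in wild type. Depth per library is unknown.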

Other observations

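The 665 windows lay on every chromosome with marked windows except the mitochondrial one. They made up 2.42% (1.84 to 3.12) of the marked windows on chromosome 1 and 2.22% (1.63 to 2.95) on chromosome 8, against 1.13% (0.786 to 1.58) on chromosome 2 and 0.866% (0.349 to 1.78) on the X chromosome. Chromosome 1 alone has an interval that lies wholly above the 1.68% of all marked windows, and chromosome 2 alone one wholly below it. These shares were not tested against each other.

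Emptiness differed between the 3 lists lacking Cdx2. Of the 39632 marked windows, 1421 (3.59%) were empty in Cdx2 knockout, 1197 (3.02%) in the double knockout titled Cdx2-Cdx1 and 2789 (7.04%) in the one titled Cdx2-Hnf4a. The 1375 marked windows empty in the last list alone, with 1 or more nucleosomes in the other 2, held an HNF4A peak of wild type in 54.7% of cases and a CDX2 peak in 28.4%. The 246 empty in Cdx2 knockout alone held HNF4A in 22.0% and CDX2 in 24.8%. The labels contradict each other on the second gene deleted in the double knockouts, and the cause of this difference was not tested.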
